A study of Mus musculus with 8 samples.

Results

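The muscle miRNAs mmu-miR-1, mmu-miR-133a and mmu-miR-133b were examined in the lumbar ventral spinal cord of mice. They were taken by name from the TaqMan card A, a plate of quantitative PCR assays. The names mmu-miR-1, mmu-miR-133a, mmu-miR-133b and mmu-miR-206 were looked up, and the first 3 of these 4 gave a value, out of 375 miRNA assays. miR-206 is not analysed here. The study compared 4 samples of MLC/SOD1G93A mice with 4 samples of wild type mice. The MLC/SOD1G93A mice overexpress mutant SOD1 under the muscle specific myosin light chain (MLC) promoter. Both groups were of the FVB strain and 4 months old, and each sample was measured on 1 card. The transgene is meant to act in muscle, so the spinal cord was read as a tissue outside the one that the promoter drives. The comparison asked whether miRNAs of the cord differed between these groups.

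miR-1, miR-133a and miR-133b belong to the myomiRs, small RNAs that are abundant in skeletal and cardiac muscle. A miRNA pairs through its seed, the bases near its 5′ end, with messenger RNAs and lowers their translation or stability. miR-1 is known to promote muscle differentiation, whereas miR-133 is known to favour the proliferation of myoblasts and to restrain serum response factor. miR-206, which is made mainly in skeletal muscle, is best known for its role in the reinnervation of muscle after denervation. The genes are arranged in pairs. In the RefSeq annotation Mir1a-1 and Mir133a-2 both lie inside the long non-coding gene Mir1a-1hg, and the second copies Mir1a-2 and Mir133a-1 both lie inside Mir133a-1hg. Mir206 and Mir133b are neighbours on chromosome 1, with 3686 bases and 0 annotated genes between their hairpins. Members of a pair can therefore come from a common precursor, and the Ct difference within a pair was followed for that reason.

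The mature sequences below are from RefSeq (mouse build GRCm38.p6), read 5′ to 3′, with the seed (bases 2 to 8) in capitals. They are given for miR-133b and for the heart and slow muscle miRNAs whose assays serve as a comparison, since the 2 sets share no seed. The card names give no arm, and the arm was taken as 3p for miR-133b and miR-208 and as 5p for miR-499.
mmu-miR-133b-3p: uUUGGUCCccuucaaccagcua
mmu-miR-208a-3p: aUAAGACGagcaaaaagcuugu
mmu-miR-208b-3p: aUAAGACGaacaaaagguuugu
mmu-miR-499-5p: uUAAGACUugcagugauguuu
miR-133b-3p lies at chr1:20682834-20682855 on the plus strand, inside the hairpin chr1:20682769-20682887. miR-208a-3p (chr14:54949072-54949093) and miR-208b-3p (chr14:54975710-54975731) lie on the minus strand and have the same seed. miR-499-5p (chr2:155622893-155622913, plus strand) shares 6 of the 7 seed bases with them. For miR-1 and miR-133a only the names are given here.

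The readout of an assay is its Ct, the number of PCR cycles needed for the fluorescence to pass a set level. The RNA roughly doubles with each cycle fewer, so a lower Ct means more RNA. A Ct over 35 was taken as missing, which left 239 to 256 of the 375 miRNAs measured per sample. Wild type values were matched to samples 1 to 4 by number. The transgenic columns are named 5a, 6a, 7a and 8a and were assigned to the group only. The mean Ct of the 4 wells of U6, the small nuclear RNA used as reference, ranged from 16.88 in 7a to 18.50 in 5a and 6a. The U6 wells of 7a spanned 2.14 cycles and those of 8a spanned 1.97 cycles, against 0.39 to 1.05 in the other 6 samples. The global mean, the average Ct over the 190 miRNAs with a value in every sample, ranged from 28.02 in wild type 4 to 29.00 in wild type 1. The plant miRNA on the card, a negative control, gave a Ct of 29.85 in 7a and no Ct in the other 7 samples. U87, a further control assay that was not used as a reference, had a Ct of 18.40 in 8a. In the other 7 samples its Ct was 27.87 to 29.54.

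All 3 miRNAs were detected in 8 of 8 samples, both with the limit of 35 and with all Ct values kept. miR-133a was the most abundant by Ct. It ranked between place 10 and place 22 among the measured miRNAs of a sample, counted from the lowest Ct. miR-133b took places 68 to 93 and miR-1 places 67 to 129. The assays can differ in efficiency, so a rank describes the card and not a number of molecules. The heart and slow muscle miRNAs gave a Ct in at most 4 of 8 samples. miR-208, made from a heart myosin gene, had no Ct in any of the 8 samples. miR-208b, its relative from a slow muscle myosin gene, had 1 Ct, 35.98 in 6a, which is over the limit. miR-499, also from a myosin gene, was measured in 3 wild type samples, with Ct 33.53 in wild type 1, 31.95 in wild type 3 and 34.10 in wild type 4. In the MLC/SOD1G93A group it was measured in 8a alone, with Ct 33.83. The skeletal muscle list held 6 miRNAs, of which 5 had an assay here and 3 were measured in all samples. The liver miRNA miR-122 gave no Ct in 8 samples. The neuronal miR-124 (Ct 26.58 to 27.99), miR-9 (21.97 to 22.96) and miR-128a (28.05 to 29.84) were measured in 8 of 8. So were the oligodendrocyte miR-219 (27.71 to 28.79) and miR-338-3p (29.39 to 31.76). The Ct of miR-133a, 23.44 to 24.98, was lower than that of all these markers but miR-9. Detection of these markers alone does not name the tissue, since the 3 muscle miRNAs were detected in 8 of 8 as well.

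The Ct of miR-1 was 28.98, 28.52, 28.02 and 27.88 in wild type 1 to 4 and 29.95, 29.47, 27.58 and 28.0 in 5a to 8a. The transgenic samples fell into a high pair (5a and 6a) and a low pair (7a and 8a), with the wild type samples mostly between them. The groups overlapped, and the range over the 8 samples was 2.37 cycles, the widest of the 3 members.

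The Ct of miR-133a was 23.79, 24.56, 24.48 and 24.12 in wild type 1 to 4 and 24.98, 24.76, 23.44 and 24.80 in 5a to 8a. Samples 7a and wild type 1, which have the lowest U6 Ct of their groups, also had the lowest miR-133a Ct of their groups. The range over the 8 samples was 1.54 cycles.

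The Ct of miR-133b was 28.34, 27.65, 27.60 and 27.58 in wild type 1 to 4 and 28.68, 28.34, 27.59 and 27.96 in 5a to 8a. Wild type 2, 3 and 4 were nearly equal, and wild type 1 lay apart from them. The range of miR-133b was 1.10 cycles. By Ct miR-133a was thus the highest member in every sample, while the Ct ranges of miR-133b and miR-1 overlapped.

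**Figure D1:**
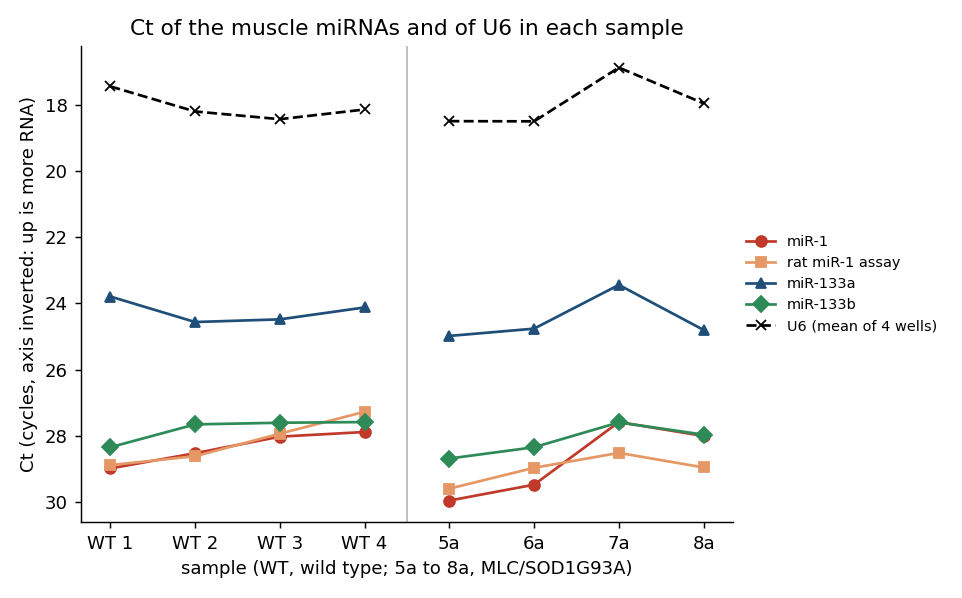
Ct in cycles (axis inverted) of miR-1, the second miR-1 assay named for the rat, miR-133a, miR-133b and the mean of the 4 U6 wells in each of the 4 wild type (WT 1 to WT 4) and 4 MLC/SOD1G93A samples (5a to 8a). miR-133a follows the peaks of U6 in WT 1 and 7a, whereas miR-133b and both miR-1 assays have their highest wild type Ct in WT 1.

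Relative to U6 all 3 members were lower on average in the MLC/SOD1G93A cord, and none passed the test. The level was computed as the mean U6 Ct minus the Ct of the miRNA, on the log2 scale. For miR-1 the level was -11.53, -10.32, -9.58 and -9.74 in wild type 1 to 4 and -11.45, -10.97, -10.70 and -10.04 in 5a to 8a. The lowest of the 8 values was a wild type one. The log2 change was -0.50 (SE 0.61, n = 4 per group, a ratio of 0.708), with an adjusted p of 0.975 in limma and an exact permutation p of 0.400 (two-sided). Fewer cells that carry a miRNA and less of it per cell cannot be told apart in tissue RNA.

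miR-133a was at -6.34, -6.36, -6.04 and -5.98 in wild type 1 to 4 and at -6.48, -6.26, -6.56 and -6.84 in 5a to 8a. Sample 6a lay among the wild type values, and the other 3 transgenic samples lay below all of them. The log2 change was -0.36 (limma SE 0.54, adjusted p = 0.975, n = 4 per group, a ratio of 0.781). miR-133a varied less than most miRNAs, and an ordinary linear model gave the same change an SE of 0.16, with an adjusted p of 0.979. The exact permutation p was 0.0857, where 4 samples against 4 can give 0.0286 at the smallest.

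miR-133b was at -10.89, -9.45, -9.16 and -9.44 in wild type 1 to 4 and at -10.18, -9.84, -10.71 and -10 in 5a to 8a. Wild type 1 was again the lowest value, and the other 3 wild type samples lay above all 4 transgenic ones. The log2 change was -0.45 (SE 0.59, n = 4 per group, a ratio of 0.733), with an adjusted p of 0.975 in limma and an exact permutation p of 0.371.

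Across the card 227 miRNAs were tested. In limma 0 of them (0%) were lower and 0 (0%) higher at an adjusted p under 0.05. At an unadjusted p under 0.05, 5 (2.2%) were lower and 1 (0.441%) was higher, and none of the 3 members was among them. The 5 were miR-130b, miR-369-3p, miR-325, miR-223 and miR-129-5p and the 1 was miR-224, all named after their values were seen. The exact Mann-Whitney test, which the methods name, gave 0 in either direction even at an unadjusted p under 0.05. The median log2 change was -0.31 over all 227 miRNAs and -0.45 over the 3 members, all 3 of which were negative, as were 176 of the 227. Without wild type 1, whose U6 Ct is the lowest of its group, the change was -0.91 for miR-1 and -0.84 for miR-133b, and the median over the card was -0.71. Without 7a the change was -0.53 for miR-1, -0.35 for miR-133a and -0.27 for miR-133b.

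The sign of these changes depended on the reference RNA. Relative to the global mean the level of miR-1 was 0.02, -0.04, 0.09 and 0.14 in wild type 1 to 4 and -1.17, -0.60, 1.11 and 0.27 in 5a to 8a. The wild type values lay within a narrow band and the transgenic values lay on both sides of it. The log2 change was -0.15 (exact permutation p = 0.800, n = 4 per group), and the SD was 0.079 in wild type and 1.0 in MLC/SOD1G93A.

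On the same scale miR-133a was at 5.21, 3.92, 3.63 and 3.90 in wild type 1 to 4 and at 3.80, 4.11, 5.25 and 3.47 in 5a to 8a. Each group held 1 high sample, wild type 1 and 7a, and the group means differed by -0.01 (exact permutation p = 1, n = 4 per group). miR-133b was at 0.66, 0.83, 0.51 and 0.44 in wild type 1 to 4 and at 0.10, 0.53, 1.10 and 0.31 in 5a to 8a. The groups overlapped, with a difference of -0.10 (exact permutation p = 0.714, n = 4 per group).

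The global mean moved the median change of all miRNAs from -0.31 to 0.04, so that relative to the card the members were lower by amounts within their error. With Y1 RNA as reference the changes of miR-1, miR-133a and miR-133b were 0.44, 0.58 and 0.49, while the median of the card was 0.64. With snoRNA135 they were -0.01, 0.14 and 0.04 and the median 0.18. With snoRNA202 they were -0.53, -0.39 and -0.48 and the median -0.36. A single U6 well was also enough to move them. Well 1 alone gave -1.31, -1.17 and -1.26, and well 4 alone gave 0.16, 0.30 and 0.21. The adjusted p of the members ranged from 0.247 to 0.999 over all references, limits and left-out samples.

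**Figure D2:**
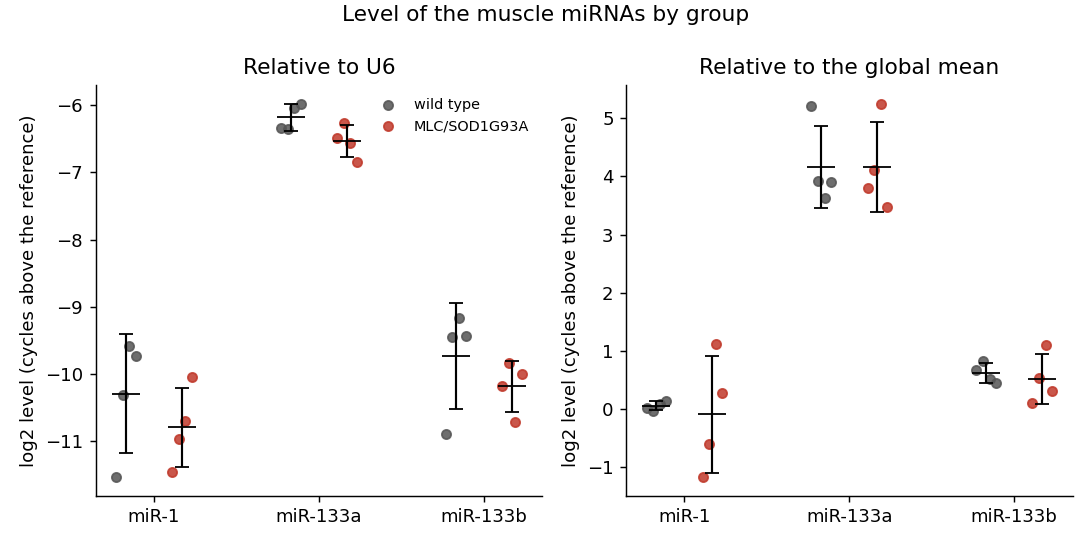
Log2 level of miR-1, miR-133a and miR-133b relative to U6 (left) and to the global mean of 190 miRNAs (right), one point per sample, with the mean (long bar) and SD of the 4 samples of a group. miR-133a is tight relative to U6 and has 1 high sample per group relative to the global mean, while the wild type values of miR-1 are tight only on the right.

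**Figure D3:**
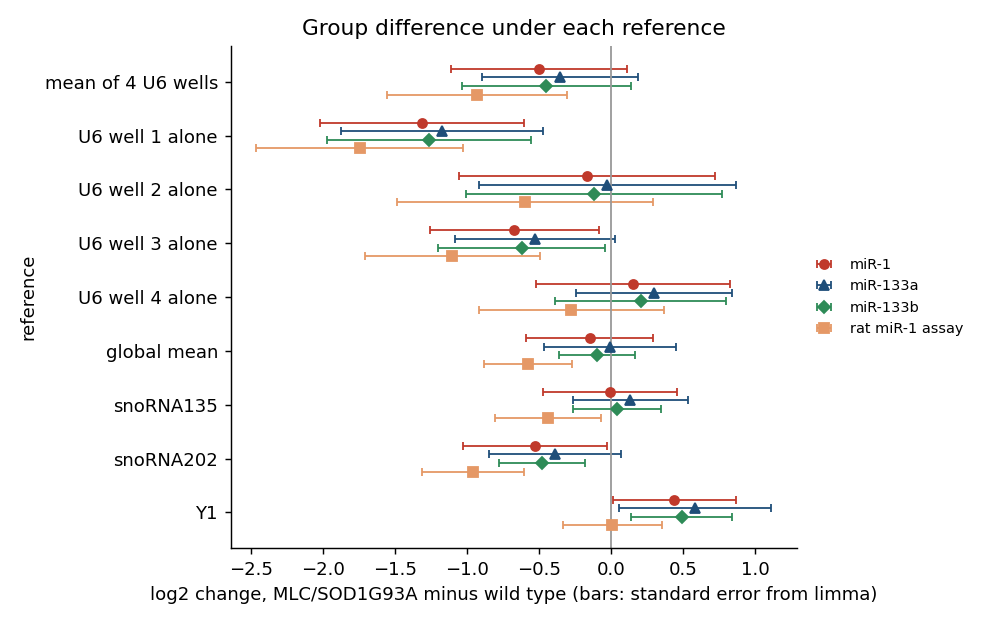
Log2 change (MLC/SOD1G93A minus wild type) of the 3 members and of the rat miR-1 assay with each reference RNA, with the standard error from limma, 4 samples per group. The members move together from -1.31 to -1.17 with U6 well 1 to between 0.44 and 0.58 with Y1.

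A difference between 2 Ct values of the same card needs no reference. It holds a constant that belongs to the 2 assays, so only its variation between samples was read. For the pair that shares its loci, miR-1 minus miR-133a was 5.19, 3.96, 3.54 and 3.76 cycles in wild type 1 to 4 and 4.97, 4.71, 4.14 and 3.20 in 5a to 8a. The difference thus ranged over 1.99 cycles between samples. With 1 card per sample, variation between samples and variation between wells cannot be told apart. It was 4.11 ± 0.74 in wild type and 4.26 ± 0.78 in MLC/SOD1G93A (SD, n = 4 each). The groups differed by 0.14 cycles (SE 0.54, exact permutation p = 0.8286, adjusted over the 3 pairs 0.914).

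miR-133b minus miR-133a, the pair of near-identical mature miRNAs from different loci, was 4.55, 3.09, 3.12 and 3.46 cycles in wild type 1 to 4 and 3.70, 3.58, 4.15 and 3.16 in 5a to 8a. Wild type 1 and 7a had the largest difference of their groups. The groups differed by 0.09 cycles (SE 0.40, exact permutation p = 0.771, adjusted 0.914). Whether an assay also reads the other, very similar target was not tested.

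miR-133b minus miR-1 was -0.64, -0.87, -0.42 and -0.30 cycles in wild type 1 to 4 and -1.27, -1.13, 0.01 and -0.04 in 5a to 8a. The value was negative in 7 of 8 samples, with 7a at the other side of 0. Its range of 1.28 cycles was the smallest of the 3 pairs, and these miRNAs do not share a locus. The difference between the 2 miR-1 assays of the card ranged over 1.56 cycles. That spread is wider than the 1.28 cycles of this pair, and whether the 2 miR-1 assays read the same sequence was not tested. The order of the ranges is therefore not read as a sign of shared or separate loci. The groups differed by -0.05 cycles (SE 0.37, exact permutation p = 0.914, adjusted 0.914). These p-values do not show that the groups are alike. The pair of miR-206 with miR-133b is not analysed here.

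**Figure D4:**
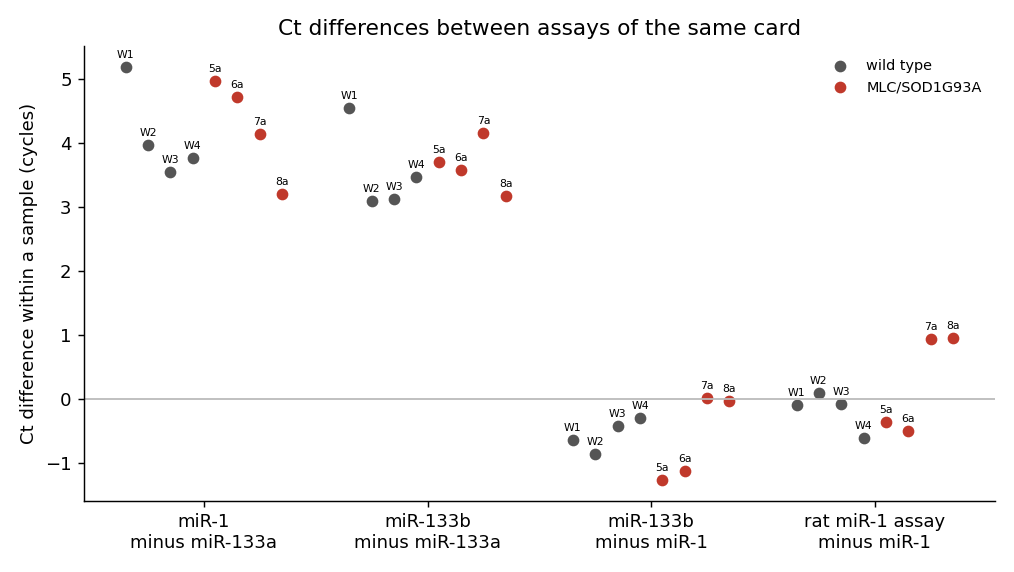
Difference in Ct (cycles) between 2 assays of the same card, one point per sample (W1 to W4, wild type; 5a to 8a, MLC/SOD1G93A). The groups overlap in all 4 differences, and W1 has the largest miR-1 minus miR-133a (5.19) and miR-133b minus miR-133a (4.55).

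Over the 8 samples miR-1 varied with miR-133b, and its correlation with miR-133a did not pass the test. On the Ct scale the correlation of miR-1 with miR-133b was r = 0.91 (exact permutation p = 0.00179, adjusted over 3 pairs 0.00536) and rho = 0.90 (exact permutation p = 0.00486, adjusted 0.0146). Samples 5a and 6a, farthest from the median of miR-1, were high in both, and without them r was 0.75 (exact permutation p = 0.0458, n = 6). For miR-1 with miR-133a r was 0.55 (exact permutation p = 0.161, adjusted 0.242) and rho was 0.60 (exact permutation p = 0.132, adjusted 0.132). Without 5a and 6a that r was 0.09, and leaving out 1 sample at a time gave 0.35 (without 7a) to 0.72 (without wild type 1). For miR-133a with miR-133b r was 0.43 (exact permutation p = 0.283, adjusted 0.283) and rho was 0.62 (exact permutation p = 0.106, adjusted 0.132), and without 7a and wild type 1 r was 0.83. Leaving out 1 sample at a time gave that r values from 0.19 (without 5a) to 0.69 (without wild type 1), with 0.28 without 7a. For miR-1 with miR-133b the same range was 0.84 to 0.95. The difference between these correlations was not tested.

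Every assay of a card shares the loaded RNA, so the correlations of Ct values were set against those with all other miRNAs. The median r of miR-1 with the 189 other miRNAs measured in all samples was 0.37, and 167 of the 189 were positive. Among them miR-133b had the highest r with miR-1, and miR-1 had the highest r with miR-133b, while miR-133a was in place 56 for miR-1. Next for both came miR-30e, outside the muscle set, with r = 0.89 with miR-1 and 0.90 with miR-133b. These lay close to the 0.91 of the pair, so the first places do not set the pair apart from the card. Relative to U6 the r of miR-1 with miR-133b was 0.77 (exact permutation p = 0.0302, adjusted over 3 pairs 0.0907) and rho was 0.83 (exact permutation p = 0.0154, adjusted 0.0461). On that scale the median r of miR-1 with the 189 others was 0.53, and miR-133b came in place 13. The median r of miR-133b was 0.82, above its value with miR-1, which came in place 117. Relative to the global mean the r of miR-1 with miR-133b was 0.74 (exact permutation p = 0.0378, adjusted 0.0873), with rho at 0.24 (exact permutation p = 0.582, adjusted 0.873). This r rested on 5a and 7a, the lowest and the highest miR-1 level, without which r was -0.31.

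**Figure D5:**
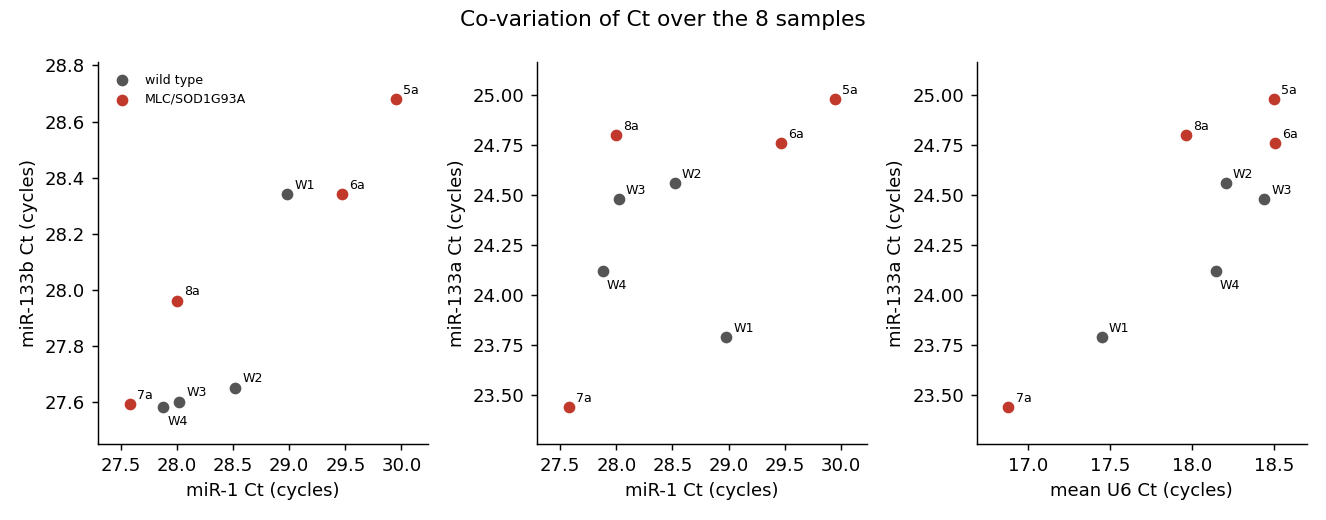
Ct in cycles of miR-133b (left) and miR-133a (middle) against that of miR-1, and of miR-133a against the mean Ct of the 4 U6 wells (right), one point per sample (W1 to W4, wild type; 5a to 8a, MLC/SOD1G93A). The left panel has r = 0.91, the middle panel 0.55 and the right panel 0.88, the last resting on W1 and 7a.

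The Ct of miR-133a had a higher r with U6 than with the global mean, a relation examined after the values were seen. Its r with the mean U6 Ct was 0.88 (exact permutation p = 0.00563, adjusted over 9 relations 0.0253) and its rho was 0.69 (exact permutation p = 0.0694, adjusted 0.104). This r was the highest of the 190 miRNAs, whose median was -0.23. It rested on wild type 1 and 7a, the samples with the lowest U6 Ct: without both r was 0.30, and without 7a alone it was 0.74. For miR-1 the r with U6 was 0.50, and 0.24 without 7a. For miR-133b it was 0.27, and -0.01 without 7a. With the 4 U6 wells taken singly the r of miR-133a was 0.53, 0.95, 0.75 and 0.48. With the global mean it was -0.13, against 0.66 for miR-1 and 0.71 for miR-133b. Single miRNAs of the card could still vary with miR-133a, and the Ct of miR-342-3p had r = 0.91 with it.

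Accordingly the spread of miR-133a depended on the reference more than that of the other members. Its within-group SD relative to U6 was 0.22, the smallest of the 190 miRNAs, whose median was 0.92. Relative to the global mean its SD was 0.74, place 165 of 190 from the smallest, where the median was 0.43. For miR-133b the SD was 0.62 against U6 and 0.33 against the global mean, and for miR-1 it was 0.75 and 0.71.

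The card holds a second miR-1 assay, named for the rat, which was compared with the mouse assay after the values were seen. Its Ct was 28.88, 28.61, 27.93 and 27.27 in wild type 1 to 4 and 29.59, 28.96, 28.51 and 28.95 in 5a to 8a. Whether the 2 assays read the same sequence was not tested. They lay within 0.10 cycles of each other in wild type 1 to 3. In 7a and 8a the rat assay was higher by 0.93 and 0.95 cycles, and in wild type 4, 5a and 6a it was lower by 0.61, 0.36 and 0.51 cycles. The within-group SD of the difference was 0.60 cycles, and its group difference was 0.43 cycles (SE 0.43, exact permutation p = 0.371, n = 4 per group). The Ct values of both assays had r = 0.71 (exact permutation p = 0.0453, adjusted over 9 relations 0.102) and rho = 0.76 (exact permutation p = 0.0368, adjusted 0.104), and without 5a and 6a r was 0.43. Relative to U6 the rat assay changed by -0.93 (SE 0.62, adjusted p = 0.975 in limma, exact permutation p = 0.171, n = 4 per group), against -0.50 in the mouse assay.

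The Ct of this second assay also varied with that of miR-133b. Its r with miR-133b was 0.80 (exact permutation p = 0.0104, adjusted over 9 relations 0.0311) and its rho was 0.93 (exact permutation p = 0.00169, adjusted 0.0152), and without 5a and wild type 1 r was 0.67. Its r with miR-133a was 0.40 (exact permutation p = 0.324, adjusted 0.365) and its rho was 0.71 (exact permutation p = 0.0576, adjusted 0.104), and without 7a and wild type 1 r was 0.98.

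Of 7 other names on the list of muscle miRNAs, 4 had an assay here and 1, miR-486, was measured often enough to be tested. miR-486 is made from the ankyrin gene in muscle and is also abundant in red blood cells. Its Ct was 26.59, 26.35, 26.27 and 24.77 in wild type 1 to 4 and 26.10, 26.95, 25.58 and 25.99 in 5a to 8a. The groups overlapped, with a log2 change relative to U6 of -0.26 (SE 0.62, adjusted p = 0.975 in limma, n = 4 per group). The number of other muscle miRNAs that passed the test was 0 in either direction.

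The 3 members summed, as linear levels relative to the global mean, came to between 14.9 and 39.7 in wild type and between 13.6 and 42.5 in MLC/SOD1G93A. miR-133a made up 81.9% to 93.5% of that sum in each sample, so the sum is mostly a reading of miR-133a. The highest sums were those of wild type 1 and 7a. Markers of other cell types that ventral cord tissue holds were measured in 8 of 8 samples. The list had 2 of 2 smooth muscle and pericyte miRNAs, 2 of 2 endothelial, 2 of 3 red blood cell, 3 of 3 neuronal and 2 of 2 oligodendrocyte miRNAs. miR-144 of red blood cells is not analysed here. Relative to the global mean miR-126-3p of endothelium had r = 0.84 with miR-133a, and its partner from the other arm, miR-126-5p, had -0.38. miR-145 of smooth muscle had -0.74 with miR-133a and 0.14 with miR-1, and miR-143 of the same list had -0.43 and 0.39. miR-451 of red blood cells had -0.61 with miR-133a and 0.06 with miR-1, whereas miR-486, also on that list, had 0.37 and 0.33. For the oligodendrocyte miR-219 and miR-338-3p r was -0.74 and -0.28 with miR-1 and -0.35 and -0.24 with miR-133a. The neuronal miR-124, miR-9 and miR-128a had 0.53, -0.03 and -0.54 with miR-1 and 0.26, 0.49 and -0.62 with miR-133a. These are descriptions over 8 samples that share the reference. The part of muscle tissue, blood or vessels in the levels of the 3 members was not tested.

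Among the miRNAs measured in all samples the pattern most like miR-133a, by r over the 8 samples relative to the global mean, was that of miR-342-3p (r = 0.94), followed by miR-30e (0.88) and miR-194 (0.86). The Ct of miR-342-3p ranged from 23.18 to 24.43, close to that of miR-133a. For miR-1 the order was miR-494 (0.76), miR-133b (0.74) and miR-467c (0.73). For miR-133b it was miR-1 (0.74), miR-133a (0.69) and miR-30e (0.66). The 3 muscle miRNAs were thus each other's nearest patterns for miR-133b alone, whereas for miR-133a the nearest 3 held neither miR-1 nor miR-133b. This order rested on few samples. The r of miR-133b with miR-1 was -0.31 without 5a and 7a, and that with miR-133a was 0.38 without 7a and wild type 1.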

How the data were processed

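Total RNA of each sample was reverse transcribed and run on 1 TaqMan Array Mouse MicroRNA Card A, and 3 tables were deposited by the authors. One gives raw Ct values. Another is on the log2 scale, where the authors subtracted the mean Ct of 4 U6 wells. For the muscle miRNAs it matched the Ct table within 0.0075. The third, the authors' fold changes between groups, was not used. The methods name both global mean and U6 normalization. U6 was the main reference here and the global mean an alternative. The wild type columns match samples 1 to 4 by number, the columns 5a to 8a match the group only, and 0 columns per sample were left unmatched.

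Ct over 35 was set missing. A miRNA entered the test with 3 or 4 values in both groups, using limma 3.58.1 in R 4.3.3 (empirical Bayes, no covariates, Benjamini-Hochberg over 227 miRNAs, threshold 0.05). Single values and pairs were tested with two-sided exact permutation over 70 assignments, and correlations over 40320 pairings (Python 3.11.15, scipy 1.17.1). The limma step was also run on simulated data, with large planted changes and independent noise smaller than the median spread of these data relative to U6. That run checks the code only and gives no power or error rate for these data. Ct values carry no read depth, and precision is set by 4 cards per group and by the reference that all assays of a card share. The labels list separate samples without naming the animals, so p-values measure the spread between these samples.

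The members and lists were chosen with earlier results of these data known. Named miRNAs were the members, the other muscle miRNAs of a list (miR-206, miR-208, miR-208a, miR-208b, miR-499, miR-486, miR-378), the control assays, for each member the 3 miRNAs with the highest r relative to the global mean, and cell type markers where a result turned on them. Marker lists covered skeletal muscle, smooth muscle and pericytes, endothelium, red blood cells, neurons, oligodendrocytes and liver. The alternatives were other references (global mean, snoRNA135, snoRNA202, Y1 and, chosen after seeing the data, each U6 well), Ct limits of 32 and 40, measurement in all 8 samples, an ordinary linear model, the exact Mann-Whitney test, the authors' normalized table and leaving out each sample. The mRNA array, card B and the single qPCR are not analysed here.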

Additional observations from a re-analysis of the deposited data

Results flagged for a closer look

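In 3 of 32 groups of 4 values 1 sample lay far from the other 3, where chance gives about 5% of groups. The 32 groups hold the same Ct values on several scales and as pair differences. They are thus not independent, and no excess over 5% is read from them. The Ct of miR-133a was 23.44 in 7a and 24.76 to 24.98 in the other transgenic samples. The Ct of miR-133b was 28.34 in wild type 1 and 27.58 to 27.65 in the other wild type samples. Relative to U6 the log2 level of miR-133b was -10.89 in wild type 1 and -9.45 to -9.16 in the other wild type samples. The plant control miR159a gave a Ct of 29.85 in 7a and none in the other 7 samples, 4 wild type ones among them. The control assay U87 had a Ct of 18.40 in 8a and of 27.87 to 29.54 in the other 7 samples. U87 was not used as a reference, and the cause of its value in 8a was not tested.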

How the results depend on the processing

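Of 245 alternative values, 193 had the same direction and outcome of the test as the main value or, for counts, stayed within 1.5 times of it. None gave a member an adjusted p under 0.05. The group difference of miR-1 turned to 0.44 with Y1 and 0.16 with U6 well 4, that of miR-133a to 0.14 with snoRNA135, 0.58 with Y1 and 0.30 with U6 well 4, that of miR-133b to 0.043, 0.49 and 0.21 with the same references, and that of the rat miR-1 assay to 0.01 with Y1. The cause was not tested. Leaving out each sample gave -0.91 to -0.26 for miR-1, -0.45 to -0.25 for miR-133a and -0.84 to -0.26 for miR-133b.

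The count of miRNAs lower at an adjusted p under 0.05 was 4 with U6 well 1, and 0 to 1 without each sample (1 without wild type 1). The count lower at an unadjusted p under 0.05 was 13 with the global mean, 28 with snoRNA202, 0 with Y1, 3 when measured in all samples, 0 by the exact Mann-Whitney test, 45, 2 and 1 with U6 wells 1, 2 and 4, and 3 to 34 without each sample (34 without wild type 1, 3 without wild type 3 or 7a). The count higher was 8 with the global mean, 7 with snoRNA135, 67 with Y1, 0 with a Ct limit of 32, 0 when measured in all samples, 0 by the exact Mann-Whitney test, 0, 2, 0 and 4 with U6 wells 1 to 4, and 0 to 2 without each sample.

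Without each sample the group difference was -0.096 to 0.502 cycles for miR-1 minus miR-133a, -0.075 to 0.424 for miR-133b minus miR-133a and -0.256 to 0.171 for miR-133b minus miR-1, so no pair had a settled direction. The r of miR-1 with miR-133b was 0.768 relative to U6 (exact permutation, adjusted p = 0.0907) and 0.743 relative to the global mean (exact permutation, adjusted p = 0.0873). Without the 2 samples farthest from the median r was 0.746 (exact permutation, adjusted p = 0.06875). These values of r missed the threshold after adjustment, whereas rho relative to U6 passed it (exact permutation, adjusted p = 0.0461). Without each sample r was 0.845 to 0.953.

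The labels state no pairing between wild type and transgenic samples, and no paired analysis was made. The limit of this design is the spread of the reference and of the samples, which gave a median SE of 0.66 on the log2 scale with U6 as reference and of 0.32 with the global mean.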
